A study of Mus musculus with 20 samples.

Results

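Livers lacking both Cpt2 and Ppara were set against livers lacking both Cpt1a and Cpt1b, across every gene with enough reads to test. The groups were taken by their deposited labels alone: the 4 libraries labelled as a liver-specific double knockout of PPAR and CPT2, named Ppara and Cpt2 in the series' design text (Cpt2PparaDKO), and the 4 labelled as a liver-specific double knockout of CPT1A and CPT1B (Cpt1DKO). They make up 8 of the 20 libraries of the series, and 15669 of the 56748 genes in the deposited count table were tested. All mice had been fasted for 24 h, and total RNA from flash-frozen liver was sequenced. Levels in mice carrying floxed Cpt1a, Cpt1b and Cpt2 alleles (Control, 4 libraries) and in liver-specific Cpt2 knockouts (Cpt2KO, 4 libraries) are given beside some genes as a reference. The tests also used 4 libraries labelled as a liver-specific triple knockout of CPT1A, CPT1B and CPT2, whose levels are not given here. The Cre driver, the sex and age of the mice and the strain background were not given in the sources used here. No label ties a library to an animal. The p-values here therefore set the difference between the groups against the spread of libraries within groups, estimated over all 20 libraries. Part of that spread may be technical. The groups differ at Cpt1a, Cpt1b, Cpt2 and Ppara at once, and the labels do not name the breeding lines. The contributions of the single genes and of any difference between lines cannot be told apart.

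In the fasted liver, long-chain fatty acids from adipose tissue are activated to acyl-CoAs and carried into mitochondria by the carnitine shuttle. CPT1A, the liver form, and CPT1B, the muscle form, make acylcarnitines at the outer mitochondrial membrane, the translocase encoded by Slc25a20 moves them across the inner membrane, and CPT2 remakes acyl-CoAs in the matrix for beta-oxidation. PPARα is a nuclear receptor that binds fatty acids and, with its partner RXR, switches on genes of fatty acid uptake, mitochondrial and peroxisomal oxidation, microsomal omega-oxidation and ketone body synthesis during fasting. Loss of either CPT step blocks mitochondrial oxidation of long-chain fatty acids, but loss of CPT1 stops it before and loss of CPT2 after acylcarnitines are made.

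The libraries held 14129595 to 19964385 counts, except Cpt2PparaDKO replicate 1 with 36452673. Values are given as CPM (counts relative to library size), scaled by the trimmed mean of M-values (TMM), and a gene is called when its edgeR quasi-likelihood test, fitted over all 20 libraries, has an adjusted p (Benjamini-Hochberg over the 15669 genes) under 0.05. Cpt2PparaDKO replicate 4 stood apart from its group: it had 1270 CPM of Xist, the X-inactivation RNA of female cells, against at most 0.719 CPM in each of the other 7 libraries, and at most 1 count in each of 4 Y-linked genes. Its chi-square per degree of freedom against its group mates was 123 to 151, beside 11.5 to 43.2 among the other 3 and 14.5 to 61.9 within Cpt1DKO. It is therefore the only library of a female pattern among the 8, and sex and this library cannot be told apart. Results are given with it, and counts of called list members are also given without it where they differ.

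**Figure D1:**
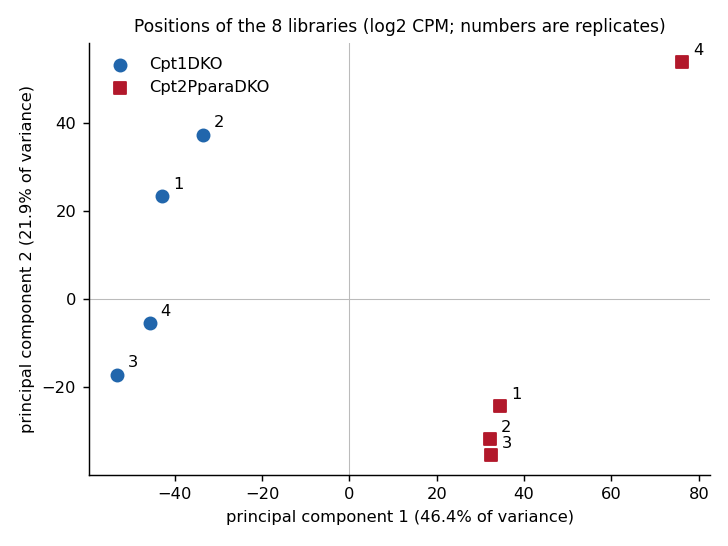
Positions of the 8 libraries on the first 2 principal components of log2 CPM (x axis 46.4% and y axis 21.9% of the variance), blue circles for Cpt1DKO and red squares for Cpt2PparaDKO, numbered by replicate. The groups separate on the x axis, and Cpt2PparaDKO replicate 4 lies at 53.7 on the y axis while its 3 group mates lie between -24.3 and -35.5.

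The targeted genes followed the labels, apart from Cpt1b, whose level was too low to check. Cpt1a (chr19:3372334-3435733 in GRCm39) had 1011, 962, 919.9 and 468 CPM in the 4 Cpt2PparaDKO libraries and 153, 146, 173 and 148 CPM in the 4 Cpt1DKO libraries. The Cpt1DKO values lay far below all 4 of the other group (log2 fold change, Cpt2PparaDKO over Cpt1DKO, 2.44 ± 0.19 (SE), adjusted p = 7.78e-09), at 0.149 of the Control mean of 1038 CPM. Cpt2 (chr4:107761178-107780807) had 31.4, 39.1, 36.8 and 28.5 CPM in Cpt2PparaDKO and 284, 147, 298 and 302 CPM in Cpt1DKO. All 4 Cpt2PparaDKO values were lower (-2.93 ± 0.20 (SE), adjusted p = 9.59e-10), and within Cpt1DKO, replicate 2 had about the level of the Cpt2KO mean (131 CPM) while the other 3 lay above the Control mean of 249 CPM. Ppara (chr15:85619184-85687020) had 75.7, 83.3, 79.4 and 54.3 CPM against 169.7, 207, 317 and 259.9 CPM, again without overlap (-1.70 ± 0.24 (SE), adjusted p = 4.20e-05). Cpt1b (chr15:89300608-89310066) was between 0.357 and 1.11 CPM in the 8 libraries, with a mean of 0.580 ± 0.200 CPM in Cpt2PparaDKO and 0.881 ± 0.217 CPM in Cpt1DKO (SD, n = 4 each), and was not called (adjusted p = 0.289). Reads that remain from a deleted gene may come from exons outside the deletion or from cells other than hepatocytes, and the deleted exons were not given in the sources used here.

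Across all genes, 3436 were called (21.9 percent of those tested), 1658 higher (10.6 percent) and 1778 lower (11.3 percent) in Cpt2PparaDKO. Of these, 1391 (8.88 percent of those tested) differed by more than 2-fold, 737 higher and 654 lower. Without Cpt2PparaDKO replicate 4, 2956 genes were called, 1511 higher and 1445 lower. The genes called lower carried much of the liver's message: they summed to 442200 CPM on average in Cpt1DKO and 200900 CPM in Cpt2PparaDKO, while those called higher summed to 47690 and 89600 CPM. TMM factors were 1.17 to 1.29 in Cpt2PparaDKO and 0.887 to 0.985 in Cpt1DKO. With library totals alone as the scale, the median log2 fold change of all genes moved from 0.0078 to 0.379 and 88.7% of the calls were higher, against 48.3% here, so directions are relative to the TMM scale, lists whose median turned sign with it are named as such, and small values of genes not called can turn with it too.

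**Figure D2:**
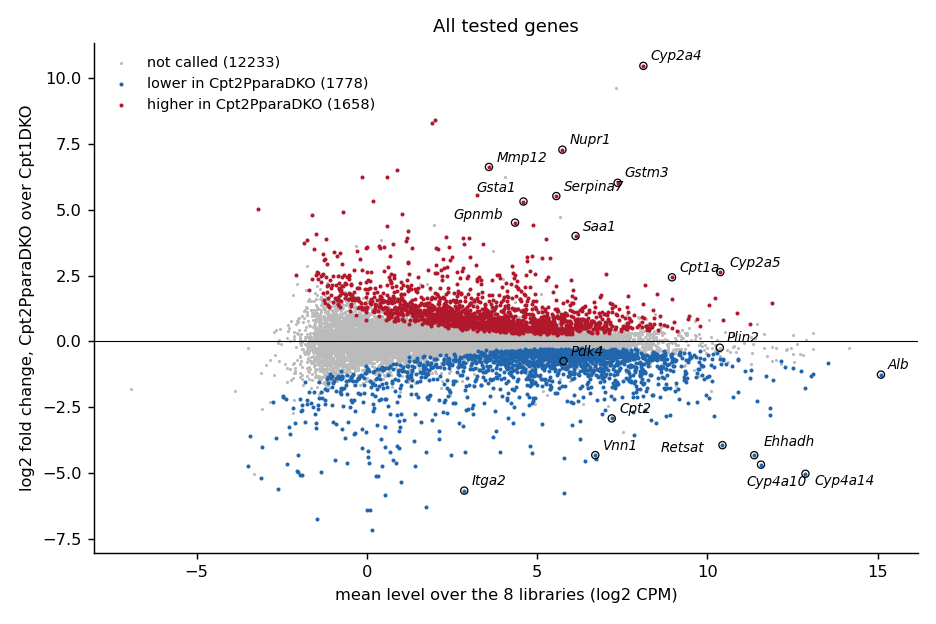
Log2 fold change of Cpt2PparaDKO over Cpt1DKO (y axis) against the mean level over the 8 libraries in log2 CPM (x axis) for the 15669 tested genes, 1 point a gene, red where called higher, blue where called lower and grey where not called. Omega-oxidation and peroxisomal genes such as Cyp4a14 and Ehhadh combine high levels with falls past -4 on the log2 scale.

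The largest falls among well-expressed protein-coding genes included genes of fatty acid oxidation. Of the 12 named by size, Cyp4a14, Cyp4a10, Cyp4a31 and Cyp4a32 encode omega-hydroxylases, Ehhadh a peroxisomal enzyme, Acss3 an acyl-CoA synthetase, Vnn1 a pantetheinase and Retsat retinol saturase. Itga2, an integrin subunit, had the largest fall, with 0.282, 0.0892, 0.140 and 0.543 CPM in Cpt2PparaDKO and 17.4, 31.8, 2.71 and 4.96 CPM in Cpt1DKO. Its Cpt1DKO libraries differed widely among themselves, from 2.71 to 31.8 CPM, although none reached down to the other group (-5.67 ± 0.98 (SE), adjusted p = 5.41e-04; -4.91 without Cpt1DKO replicate 2). Serinc2 had 1.51, 3.52, 2.29 and 4.42 against 57.9, 44.1, 48.5 and 66.7 CPM (-4.23 ± 0.24 (SE), adjusted p = 1.86e-10), and Rfx4, a transcription factor of the RFX family, fell from a mean of 10.6 ± 1.73 to 0.535 ± 0.160 CPM (SD, n = 4 each). The 12 largest rises included Nupr1, a stress-induced chromatin protein, the glutathione S-transferases Gstm3 and Gsta1, the macrophage genes Mmp12 and Gpnmb, the acute phase genes Saa1, Saa2 and Lcn2, and the thyroxine carrier Serpina7, with 59.9, 45.8, 40.4 and 223 CPM against 2.19, 0.392, 3.11 and 2.37 CPM (5.53 ± 0.71 (SE), adjusted p = 3.90e-05; 4.63 without Cpt2PparaDKO replicate 4). All of these genes had no overlap between the groups, as the naming rule required, while 26.1 percent of all tested genes had none.

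Genes of microsomal omega-oxidation, which hydroxylates the far end of a fatty acid, had the lowest median of the PPARα-linked lists. Of 12 tested genes, 8 were lower and none higher, with a median log2 fold change of -2.0 against 0.0078 over all genes. Their summed level was 1480 ± 207 CPM in Cpt2PparaDKO and 22740 ± 2229 CPM in Cpt1DKO (SD, n = 4 each), beside 13790 CPM in Control. Cyp4a14 had 276, 464, 590.3 and 453 CPM in Cpt2PparaDKO and 16960, 13710, 12520 and 15200 CPM in Cpt1DKO. Every Cpt2PparaDKO library lay far below the Control mean of 8249 CPM and every Cpt1DKO library above it, a 32.7-fold difference between the groups (-5.03 ± 0.23 (SE), adjusted p = 3.96e-12). Cyp4a10 had 223, 261, 199 and 227 CPM against 6396, 5851, 5444 and 5746 CPM, 25.7-fold lower (-4.69 ± 0.20 (SE), adjusted p = 1.21e-12). Among the members not called were Cyp4f13 (-0.14) and Cyp4f14 (0.57). Near-identical Cyp4a genes may share reads, so the split between Cyp4a10, Cyp4a31 and Cyp4a32 is uncertain.

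Peroxisomal oxidation, which shortens very long and branched acyl chains, was lower in 24 of 36 tested genes, with none higher and a median of -0.78. Ehhadh, the bifunctional enzyme of the pathway, had 188, 257, 299.8 and 263 CPM in Cpt2PparaDKO and 5997, 3694, 4745 and 5772 CPM in Cpt1DKO. The 4 low values lay under the Control mean of 1741 CPM and the 4 high ones above it (-4.33 ± 0.25 (SE), adjusted p = 1.23e-10). Decr2, a peroxisomal dienoyl-CoA reductase, had 63.5, 69.3, 64.9 and 47 CPM against 372, 314, 439.6 and 435 CPM, with Cpt1DKO close to the Control mean of 367 CPM (-2.67 ± 0.16 (SE), adjusted p = 1.86e-10). Among the peroxins, which import proteins or divide the organelle, Pex11a, a division factor known as a PPARα target, was lower (-1.68 ± 0.16 (SE), adjusted p = 2.84e-07), and Pex2, Pex6, Pex7 and Pex13 were not called, with log2 fold changes of -0.35 to 0.08.

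Mitochondrial fatty acid oxidation was lower in 20 of 23 genes and higher in none, with a median of -1.40. Acsl1, which activates long-chain fatty acids, had 373, 346, 325 and 115 CPM against 1828, 1483, 2459 and 2494 CPM. All 4 Cpt2PparaDKO libraries were lower, replicate 4 most of all (-2.84 ± 0.33 (SE), adjusted p = 4.09e-06). The enoyl-CoA isomerases Eci1 and Eci2 were 4.37-fold and 4.27-fold lower (log2 fold changes -2.13 ± 0.17 and -2.10 ± 0.15, SE). The medium-chain synthetases Acsm1 (0.16) and Acsm5 (-0.58) and the dehydrogenase Acad10 (-0.44) were the 3 members not called. In the carnitine list, 4 of 7 genes were lower. They were the translocase Slc25a20 with 55.9, 59.9, 58.8 and 47 CPM against 251, 220.2, 263 and 263 CPM (-2.17 ± 0.13 (SE), adjusted p = 3.04e-10), the carnitine importer Slc22a5 (-1.44 ± 0.15 (SE), adjusted p = 7.24e-07), and the acyltransferases Crat (-1.91 ± 0.19 (SE), adjusted p = 3.22e-07) and Crot (-1.12 ± 0.31 (SE), adjusted p = 0.0135), the last named after its value was seen.

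Ketone body synthesis, the main fate of fatty acid carbon in the fasted liver, was measured by a list of synthesis and export genes, of which 3 of 7 were lower and 1 higher. Acat1, a mitochondrial thiolase, had 220.4, 228, 227 and 102 CPM in Cpt2PparaDKO and 611, 501, 803 and 773 CPM in Cpt1DKO. It was lower without overlap, and lowest in Cpt2PparaDKO replicate 4 (-1.79 ± 0.21 (SE), adjusted p = 2.84e-06), while the dehydrogenase Bdh1 (-0.60, adjusted p = 0.284) was not called. Of the exporters, Slc16a6 had a higher value (1.05 ± 0.35 (SE), adjusted p = 0.0392), which rested on Cpt2PparaDKO replicate 4: at 9.76, 9.45, 9.91 and 25.1 CPM against 5.96, 7.13, 4.55 and 8.51 CPM, the call was lost without that library (0.59, adjusted p = 0.184) and without Cpt1DKO replicate 1, 2 or 3. Without Cpt2PparaDKO replicate 4 the counts called lower were 8 for omega-oxidation, 23 for peroxisomal oxidation, 19 for mitochondrial oxidation, 4 for the carnitine list and 4 for ketone bodies.

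Other fasting targets of PPARα split by gene: of 37 tested, 18 were lower and 5 higher (15 and 5 without Cpt2PparaDKO replicate 4), with a median of -0.89. Retsat had 146, 218, 211 and 102 CPM in Cpt2PparaDKO and 2574, 2378, 2818 and 2664 CPM in Cpt1DKO. The groups lay on either side of Control at 1574 CPM (-3.95 ± 0.22 (SE), adjusted p = 6.95e-11). Vnn1 had 12.1, 13.5, 6.45 and 7.45 CPM against 206, 119, 249 and 220.4 CPM (-4.32 ± 0.31 (SE), adjusted p = 1.02e-08), and Acot1, a cytosolic thioesterase that frees fatty acids from CoA, had 71.7, 89.9, 106 and 55.5 CPM against 597, 434, 518 and 435 CPM (-2.62 ± 0.21 (SE), adjusted p = 1.45e-08). Reads of Acot1, Acot2 and Acot3 may be shared. Slc27a1, a fatty acid transport protein, was 9.01-fold lower (-3.17 ± 0.37 (SE), adjusted p = 1.10e-05). Fgf21, a hormone released by the fasting liver, had 9.36, 11.3, 9.07 and 3.84 CPM against 37.6, 39, 12.9 and 29.1 CPM. The groups did not overlap, yet all 4 Cpt2PparaDKO values lay above the Control mean of 3.45 CPM (-1.82 ± 0.49 (SE), adjusted p = 0.0143; not called without the female-pattern libraries of the series, -1.57, adjusted p = 0.0550, or without Cpt2PparaDKO replicates 1 and 4 together, -1.52, adjusted p = 0.137). The members that were higher were Lpl, the lipase of circulating lipoproteins (1.55 ± 0.30 (SE), adjusted p = 9.59e-04), Acot9 (1.38 ± 0.28 (SE), adjusted p = 0.00127), Mmd2 (2.16 ± 0.58 (SE), adjusted p = 0.0107), the cathepsin Ctsl (1.06 ± 0.24 (SE), adjusted p = 0.00334) and Tgfbi (0.50 ± 0.15 (SE), adjusted p = 0.0181).

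Fabp1, the abundant liver fatty acid binding protein, is shown with its promoter because it was the single gene of these oxidation and target lists whose window held the PPAR response element searched for. It had 303, 423, 586 and 228 CPM in Cpt2PparaDKO and 1520, 1013, 2214 and 2153 CPM in Cpt1DKO. No library of the first group reached the second (-2.17 ± 0.29 (SE), adjusted p = 2.06e-05). The sequence is from RefSeq, build GRCm38.p6, chr6:71199629-71199928 on the plus strand, read 5′ to 3′ from 250 bases before the start to 50 after it, with the match in capitals:
Fabp1: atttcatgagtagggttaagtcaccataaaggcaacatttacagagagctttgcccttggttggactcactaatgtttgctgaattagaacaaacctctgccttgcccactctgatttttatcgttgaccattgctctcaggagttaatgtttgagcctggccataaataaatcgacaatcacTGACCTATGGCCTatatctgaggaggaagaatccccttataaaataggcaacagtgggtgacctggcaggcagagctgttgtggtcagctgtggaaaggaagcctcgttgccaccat
The capitals mark a direct repeat of AGGNCA with 1 base between the copies (DR1, N for any base, searched on both strands, here on the strand opposite to the gene), 67 to 55 bases before the start. It occurred in 125 of 32851 windows (0.381%) and in 39 of 11011 tested genes with a window (0.354%). It was in 6 of 1235 genes called higher (0.486%) and in 7 of 1323 called lower (0.529%). Among genes of the lists with a window, it was found in 1 of 32 other PPARα targets, 0 of 7 omega-oxidation, 0 of 21 mitochondrial and 0 of 26 peroxisomal genes, and in 1 of 22 ATF4 list genes, Gdf15, which was not called. Such a window does not cover elements farther away.

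Lipid droplet and triglyceride genes were lower in 14 of 26 tested and higher in 2, with a median of -0.86 (13 and 2 without Cpt2PparaDKO replicate 4, and 1 higher without Cpt1DKO replicate 1 or 3 or Cpt2PparaDKO replicate 1). Plin5, which tethers droplets to mitochondria, had 31.7, 37.2, 45.3 and 38 CPM in Cpt2PparaDKO and 197, 193, 141 and 179 CPM in Cpt1DKO. All 4 low values were under the Control mean of 102 CPM (-2.22 ± 0.24 (SE), adjusted p = 1.30e-06). Cidec, a droplet fusion protein, had 115, 119, 71.3 and 147 CPM against 325, 366, 213 and 302 CPM. It was lower without overlap (-1.42 ± 0.20 (SE), adjusted p = 3.76e-05), and both groups lay above Control at 24.3 CPM. The monoglyceride lipase Mgll (-1.92 ± 0.17 (SE), adjusted p = 6.86e-08) and the droplet-forming protein Fitm1 (-2.64 ± 0.53 (SE), adjusted p = 0.00204) were lower, and the coat protein Plin3 was higher, at 111, 104, 107 and 138 against 64.3, 67.1, 39.3 and 54.7 CPM (1.03 ± 0.16 (SE), adjusted p = 1.16e-04). Apolipoproteins and lipoprotein assembly genes were lower in 12 of 18 and higher in none, with a median of -0.78 (10 lower without Cpt2PparaDKO replicate 4). Mttp, which loads lipid onto apolipoprotein B, had 232, 212, 184 and 191 CPM against 609, 523, 499 and 528 CPM (-1.40 ± 0.13 (SE), adjusted p = 9.45e-08). Apoa1 (-1.30 ± 0.17 (SE), adjusted p = 1.50e-05) and Apoa2 (-1.33 ± 0.17 (SE), adjusted p = 1.13e-05), the main proteins of high-density lipoprotein, were lower, and Apob itself was not called (-0.48 ± 0.20 (SE), adjusted p = 0.0872).

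A few well-known fasting genes were not called. Pdk4, the kinase that shuts off pyruvate dehydrogenase, had 49.5, 38.2, 21.8 and 53.6 CPM in Cpt2PparaDKO and 88.7, 119, 30.5 and 36.4 CPM in Cpt1DKO. The groups overlapped, since Cpt1DKO replicates 3 and 4 lay within the range of Cpt2PparaDKO (-0.75 ± 0.44 (SE), adjusted p = 0.252). All 8 values were above Control at 8.48 CPM and under the Cpt2KO mean of 769.7 CPM. Plin2, the main droplet coat of hepatocytes, had 1190, 1062, 841 and 1739 CPM against 1806, 1415, 1050 and 1427 CPM (-0.24 ± 0.22 (SE), adjusted p = 0.480), a difference whose sign turned with library totals as the scale (0.14). Gdf15, a stress hormone, had 35.2, 34.1, 24 and 25.2 CPM against 27, 17.3, 3.19 and 15.6 CPM, with Cpt1DKO replicate 3 far below its mates (0.90 ± 0.43 (SE), adjusted p = 0.148). A p above the threshold does not show that these genes were alike.

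**Figure D3:**
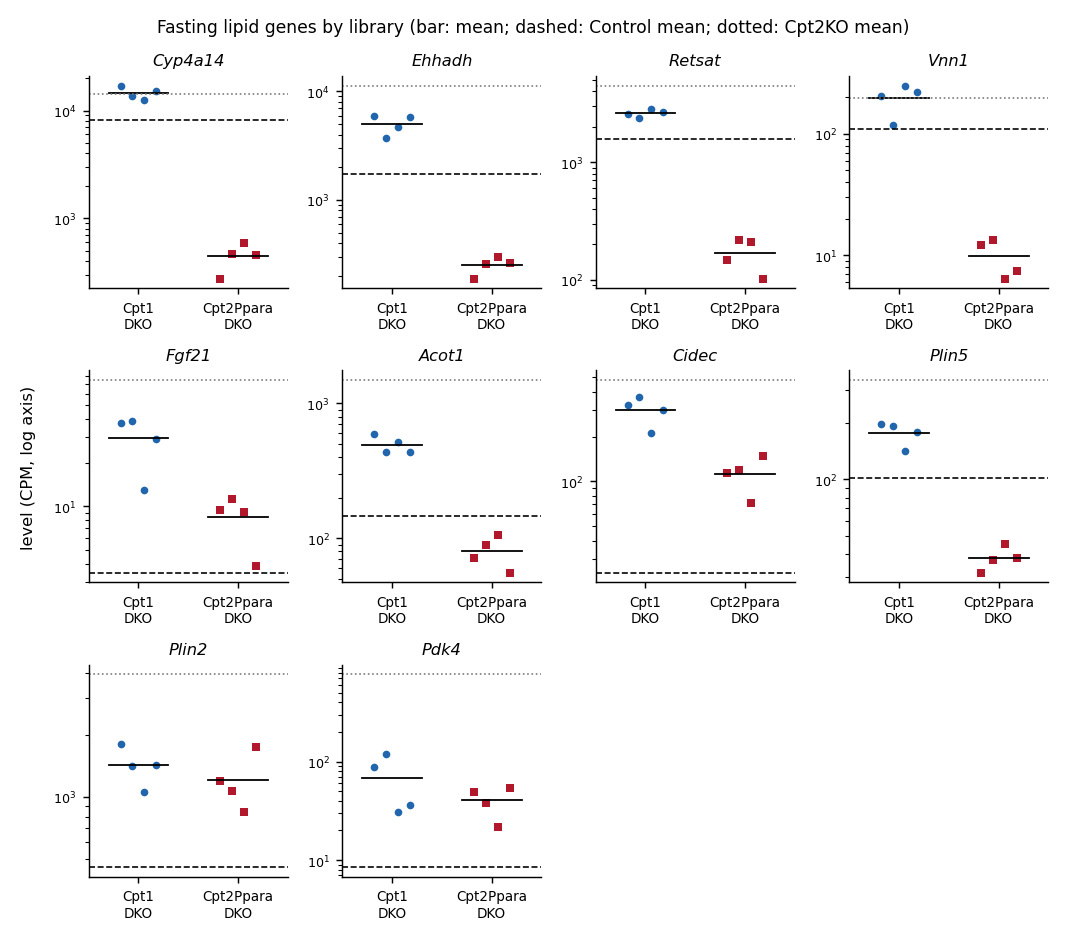
Level of 10 fasting lipid genes in CPM on log y axes, blue circles for the 4 Cpt1DKO and red squares for the 4 Cpt2PparaDKO libraries, with bars at group means and dashed and dotted lines at the Control and Cpt2KO means. Cyp4a14, Ehhadh, Retsat, Vnn1, Acot1 and Plin5 lie under Control in Cpt2PparaDKO, Fgf21 and Cidec lie between Control and Cpt1DKO, and Plin2 and Pdk4 overlap between the groups.

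Among the PPAR receptors and their partners, 1 of 13 tested was higher and 5 were lower. Pparg, the fat-storage receptor of the family, had 35.5, 36.3, 28.8 and 44.9 CPM in Cpt2PparaDKO and 10.3, 8.43, 13.7 and 6.42 CPM in Cpt1DKO. No value overlapped (1.92 ± 0.18 (SE), adjusted p = 1.61e-07). The Cpt2KO mean of Pparg was 23.3 CPM, beside 8.57 CPM in Control. Creb3l3, a liver transcription factor that works with PPARα in fasting, was lower at 292, 294, 274 and 182 against 611, 612, 669.9 and 632 CPM (-1.28 ± 0.15 (SE), adjusted p = 4.72e-06). The coactivators Ppargc1a (-1.67 ± 0.54 (SE), adjusted p = 0.0359) and Lpin1 (-2.84 ± 0.88 (SE), adjusted p = 0.0305) were lower with wide spread: Lpin1 had 47.8, 51, 56.1 and 276.5 CPM against 1161, 1190, 303 and 443 CPM. Lpin1 was not called without Cpt1DKO replicate 1 or 2 or without Cpt2PparaDKO replicate 1, 2 or 3 (adjusted p up to 0.0821), and its difference was -3.89 without Cpt2PparaDKO replicate 4. Ppargc1a lost its call without each single library other than Cpt2PparaDKO replicate 3 and Cpt1DKO replicate 4 (adjusted p up to 0.117). The list's count called lower was 3 without Cpt1DKO replicate 1 or 2 or Cpt2PparaDKO replicate 1 or 2 and 4 without Cpt2PparaDKO replicate 4, and its median turned sign with library totals as the scale. Ppard (0.32) and Rxrb (0.18) were not called.

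The 10 hepatocyte markers, from albumin to the nuclear receptor Hnf4a, were present in every library, and their summed level was 39410 to 43960 CPM in Cpt2PparaDKO and 84980 to 94520 CPM in Cpt1DKO. 6 of 10 were called lower and none higher, with a median of -0.64 (5 lower without Cpt2PparaDKO replicate 4, and 3 lower with library totals as the scale). Alb had 15960, 17710, 22800 and 25900 CPM against 52120, 47210, 48480 and 49720 CPM, and no Cpt2PparaDKO library reached Cpt1DKO (-1.26 ± 0.24 (SE), adjusted p = 7.22e-04). In bulk liver, fewer hepatocytes and less of these RNAs per hepatocyte cannot be told apart. The part of this shift in the other lists, those above as well as those that follow, was not tested.

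Gluconeogenesis genes were lower in 10 of 19 and higher in 1, with a median of -0.93 (5 lower with library totals as the scale). G6pc, the phosphatase of the last step, had 83.8, 121, 179.5 and 40.3 CPM in Cpt2PparaDKO and 563, 315, 456 and 439 CPM in Cpt1DKO, without overlap (-2.06 ± 0.46 (SE), adjusted p = 0.00372, and 0.0639 without Cpt2PparaDKO replicates 1 and 4 together). Its partner transporter Slc37a4 (-1.80 ± 0.18 (SE), adjusted p = 4.96e-07) and pyruvate carboxylase Pcx (-1.34 ± 0.21 (SE), adjusted p = 8.58e-05) were lower. Cytosolic Pck1 was lower at 4468, 4028, 3729 and 1242 against 6788, 5854, 7261 and 6191 CPM (-0.95 ± 0.29 (SE), adjusted p = 0.0199). The Pck1 call was lost in 6 of 24 alternative fits, among them without Cpt1DKO replicate 3 (adjusted p = 0.0506), with adjusted p up to 0.0793. Mitochondrial Pck2, also a target of the stress factor ATF4, had the opposite sign, with 20.9, 22.4, 19.1 and 39 CPM against 3.38, 11.1, 4.31 and 5.07 CPM (2.09 ± 0.46 (SE), adjusted p = 0.00362). Urea cycle and nitrogen genes were lower in 7 of 15 and higher in none (median -0.65). They included Cps1, the entry enzyme (-1.11 ± 0.24 (SE), adjusted p = 0.00215), the lyase Asl (-1.51 ± 0.28 (SE), adjusted p = 6.19e-04) and glutamine synthetase Glul (-1.18 ± 0.28 (SE), adjusted p = 0.00402), while Ass1 (-0.10), Otc (-0.55) and Arg1 (-0.45) were not called.

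Bile acid genes were lower in 10 of 19 and higher in none (median -0.53). Cyp7a1, which sets the rate of the classical pathway of bile acid synthesis, had 34.8, 42.8, 48.3 and 26.1 CPM in Cpt2PparaDKO and 194, 135, 111 and 156 CPM in Cpt1DKO. The low group held no value near the high one (-1.97 ± 0.43 (SE), adjusted p = 0.00315; 0.0677 without Cpt2PparaDKO replicates 1 and 4 together). Cyp8b1, the sterol 12-hydroxylase, had 233, 277, 385 and 18.3 CPM against 1190, 877, 1151 and 1399 CPM, with replicate 4 far below its mates (-2.34 ± 0.56 (SE), adjusted p = 0.00679; 0.0507 when only the 8 libraries were fitted). The Cyp1 to Cyp3 drug-metabolising P450s moved in both directions, 6 higher and 13 lower of 35. Cyp2e1, the ethanol-oxidising P450, had 4780, 4201, 2936 and 1536 CPM against 10190, 10000, 14350 and 11440 CPM (-1.77 ± 0.27 (SE), adjusted p = 7.90e-05), and Cyp2a5 had 1904, 1582, 1099 and 4584 CPM against 209, 201, 668 and 396 CPM (2.64 ± 0.56 (SE), adjusted p = 0.00287). The count of P450s called lower was 8 without Cpt2PparaDKO replicate 4 or Cpt1DKO replicate 3 and 7 with library totals as the scale, where the list median of -0.35 turned sign. Members of the Cyp2a and Cyp2c families may share reads.

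Nuclear genes of the respiratory chain were lower in 26 of 29 by small amounts, -0.34 to -0.79 on the log2 scale among those called, with none higher and a median of -0.45. Cycs, cytochrome c, had 80.4, 83.5, 89 and 109.5 CPM in Cpt2PparaDKO and 171, 159.5, 159 and 139.5 CPM in Cpt1DKO, without overlap (-0.79 ± 0.15 (SE), adjusted p = 6.43e-04). With library totals as the scale only 4 of these genes were called lower, and 18 without Cpt2PparaDKO replicate 4, so most of these calls depend on the scaling. Of 13 transcripts of the mitochondrial genome, 1 was called, mt-Nd3 (-1.16 ± 0.28 (SE), adjusted p = 0.00620), and 2 without Cpt2PparaDKO replicate 2, and the median of the 13 turned sign with library totals as the scale. Without Cpt2PparaDKO replicate 4 the counts called lower were 10 for gluconeogenesis, 6 for the urea cycle and 9 for bile acids. Without Cpt2PparaDKO replicates 1 and 4 together, gluconeogenesis had 4 and the respiratory chain 9.

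**Figure D4:**
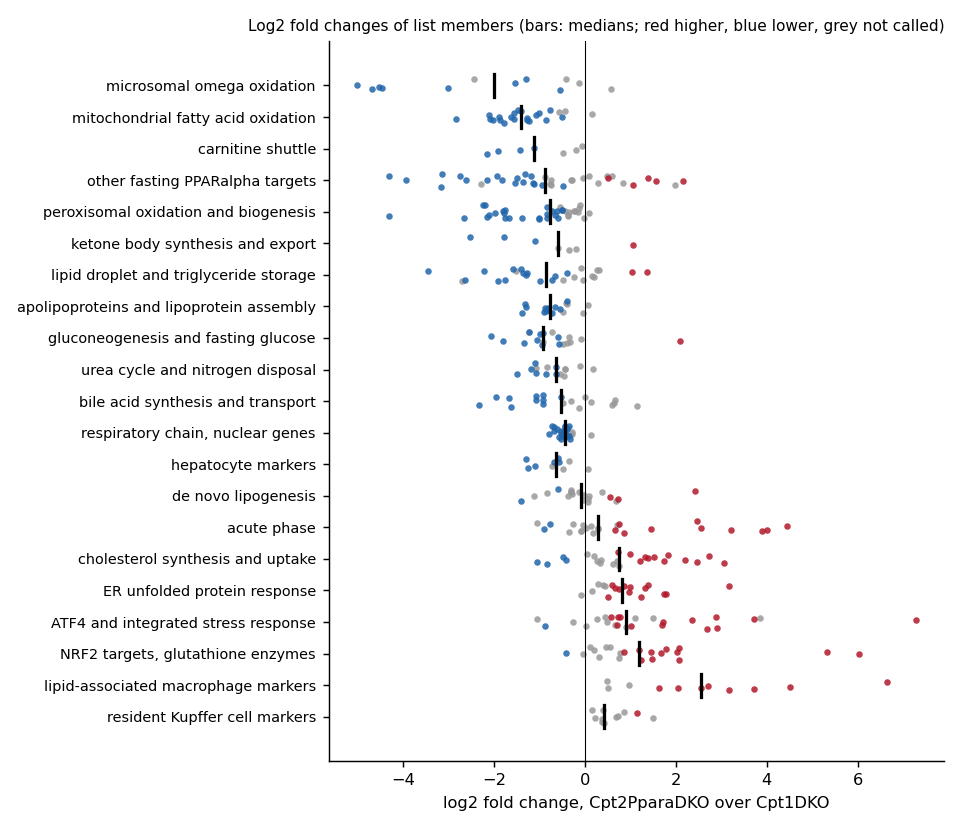
Log2 fold changes of Cpt2PparaDKO over Cpt1DKO (x axis) for the members of 21 lists (rows), 1 point a gene, blue where called lower, red where called higher and grey where not called, with a black bar at the list median. The medians of the oxidation, carnitine and lipid storage lists lie left of 0 and those of the stress, cholesterol and macrophage lists right of it, while single members of several lists lie on the other side.

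The integrated stress response, in which ATF4 raises genes of amino acid supply when translation is restrained, was higher in 13 of 25 tested genes and lower in 1, with a median of 0.90 (11 and 1 without Cpt2PparaDKO replicate 4). Nupr1 had 80.6, 65, 42 and 237 CPM in Cpt2PparaDKO and 0.530, 0.719, 0.479 and 0.902 CPM in Cpt1DKO. It was below 1 CPM in every Cpt1DKO library and in the Control mean, and highest in Cpt2PparaDKO replicate 4 (7.29 ± 0.81 (SE), adjusted p = 1.05e-05; 6.55 without that library). Psat1, an enzyme of serine synthesis, had 12.3, 10.7, 5.05 and 50.6 CPM against 0.927, 2.22, 0.639 and 2.09 CPM (3.71 ± 0.64 (SE), adjusted p = 4.95e-04; 2.66 without replicate 4). Asns, asparagine synthetase, had 32.1, 34.5, 34.7 and 32.9 CPM against 4.97, 7.72, 1.76 and 3.78 CPM. Its 4 Cpt2PparaDKO values lay close together and far above Cpt1DKO (2.87 ± 0.58 (SE), adjusted p = 0.00199). In Cpt2KO the means were 21.7 CPM for Nupr1, 10.3 CPM for Psat1 and 8.80 CPM for Asns. The pseudokinase Trib3 was 5.11-fold higher (2.35 ± 0.38 (SE), adjusted p = 3.02e-04), and Aldh18a1, of proline synthesis, was higher (2.89 ± 0.66 (SE), adjusted p = 0.00418; 2.14 without Cpt2PparaDKO replicate 4 and 3.61 without Cpt1DKO replicate 2). Atf4 itself was not called (0.43 ± 0.17 (SE), adjusted p = 0.0720; called without Cpt1DKO replicate 2, adjusted p = 0.0400, or Cpt2PparaDKO replicate 3, and with upper-quartile factors or library totals as the scale), and Shmt2, a mitochondrial folate enzyme, was lower (-0.88 ± 0.15 (SE), adjusted p = 1.92e-04).

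The unfolded protein response of the endoplasmic reticulum was higher in 13 of 18 genes and lower in none, with a median of 0.80 and a summed level of 4825 to 8479 CPM against 3119 to 4044 CPM. Sdf2l1, a co-chaperone, had 59.7, 55.8, 57 and 83.5 CPM in Cpt2PparaDKO and 9.60, 7.19, 4.47 and 7.33 CPM in Cpt1DKO. All 4 values were above the Control mean of 15.4 CPM in the first group and below it in the second (3.16 ± 0.38 (SE), adjusted p = 1.11e-05). Hspa5, the chaperone BiP, had 1362, 1107, 967 and 2673 CPM against 840.2, 551, 465 and 470 CPM (1.39 ± 0.29 (SE), adjusted p = 0.00189). The disulfide isomerase Pdia6 (1.73 ± 0.21 (SE), adjusted p = 4.65e-06) and the secreted factor Manf (1.78 ± 0.34 (SE), adjusted p = 0.00109) were higher too, and Herpud1 (-0.10), Dnajb9 (0.45) and Edem1 (0.29) were not called. The count called higher was 12 without Cpt2PparaDKO replicate 4.

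Promoters of both stress groups, and that of Fgf21 from the other PPARα targets, are shown with the element searched for in each. Each is from RefSeq, build GRCm38.p6, read 5′ to 3′ on the gene's strand from 250 bases before the start to 50 after it, with the match in capitals. Hspa5 lies at chr2:34771840-34772139 (plus strand), Pdia6 at chr12:17266339-17266638 (plus), Nupr1 at chr7:126625421-126625720 (minus) and Fgf21 at chr7:45615441-45615740 (minus):
Hspa5: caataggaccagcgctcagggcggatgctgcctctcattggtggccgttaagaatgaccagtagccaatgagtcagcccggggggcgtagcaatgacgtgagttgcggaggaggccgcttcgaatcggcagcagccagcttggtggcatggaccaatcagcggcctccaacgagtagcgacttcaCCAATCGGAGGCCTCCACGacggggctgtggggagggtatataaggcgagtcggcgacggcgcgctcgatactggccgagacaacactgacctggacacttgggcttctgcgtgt
Pdia6: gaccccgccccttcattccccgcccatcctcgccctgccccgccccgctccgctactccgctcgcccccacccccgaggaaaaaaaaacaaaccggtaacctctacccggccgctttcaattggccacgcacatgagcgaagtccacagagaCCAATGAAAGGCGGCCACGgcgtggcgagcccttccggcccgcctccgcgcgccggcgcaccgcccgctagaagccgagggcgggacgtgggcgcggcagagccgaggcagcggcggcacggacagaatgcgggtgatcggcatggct
Nupr1: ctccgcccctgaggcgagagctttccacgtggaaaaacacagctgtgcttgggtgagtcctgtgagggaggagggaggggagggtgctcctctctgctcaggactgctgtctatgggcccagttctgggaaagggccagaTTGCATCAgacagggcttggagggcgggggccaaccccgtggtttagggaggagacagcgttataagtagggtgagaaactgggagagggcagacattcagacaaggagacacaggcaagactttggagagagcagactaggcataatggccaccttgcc
Fgf21: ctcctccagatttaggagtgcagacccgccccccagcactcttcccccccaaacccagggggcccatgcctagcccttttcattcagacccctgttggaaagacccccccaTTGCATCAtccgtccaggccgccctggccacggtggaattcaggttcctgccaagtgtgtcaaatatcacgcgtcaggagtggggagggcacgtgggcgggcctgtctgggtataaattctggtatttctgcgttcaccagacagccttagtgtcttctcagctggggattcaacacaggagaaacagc
In Hspa5 and Pdia6 the capitals mark the endoplasmic reticulum stress element, CCAAT and CCACG with 9 bases between them, 65 to 47 and 98 to 80 bases before the start. Searched on both strands, it was in 39 of 32851 windows (0.119%) and in 22 of 11011 tested genes with a window (0.2%). It was in 8 of 16 unfolded protein response genes with a window, in 10 of 1235 genes called higher (0.81%) and in 0 of 1323 called lower. Of the 8, Calr, Canx, Creld2, Dnajc3, Hsp90b1, Hspa5 and Pdia6 were called higher, and so are among those 10, and Syvn1 was not called. In Nupr1 and Fgf21 the capitals mark the amino acid response element TGATGCAA, in both genes on the strand opposite to the gene and so printed as its complement, 110 to 103 and 139 to 132 bases before the start. It was in 294 windows (0.895%) and in 91 of 11011 tested genes with a window (0.826%). It was in 5 of 22 ATF4 list genes with a window, in 14 genes called higher (1.13%) and in 13 called lower (0.983%). Nupr1, of the ATF4 list, and Fgf21, of the other PPARα targets, both hold it and moved in opposite directions. Of the other 4 ATF4 list genes with it, Atf3, Chac1, Pycr1 and Slc7a11, none was called. In the other lists searched, Echs1 and Phyh held it and were lower, and Herpud1 held it and was not called. A match is a run of letters and not a measured binding site.

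NRF2 targets and glutathione enzymes, which detoxify electrophiles, were higher in 12 of 21 and lower in 1, with a median of 1.18 (10 higher without Cpt2PparaDKO replicate 4). Gstm3, a glutathione S-transferase, had 264, 214, 137 and 682 CPM in Cpt2PparaDKO and 4.77, 4.84, 4.47 and 5.64 CPM in Cpt1DKO. The 4 Cpt1DKO values lay near the Control mean of 8.23 CPM (6.03 ± 0.58 (SE), adjusted p = 1.88e-06; 5.39 without Cpt2PparaDKO replicate 4). Gsta1 had 30.6, 38.9, 33.5 and 85.8 CPM against 1.19, 1.63, 0.0798 and 1.63 CPM (5.32 ± 0.73 (SE), adjusted p = 8.09e-05). Related Gsta and Gstm genes may share reads. Outside that family, Nqo1, a quinone reductase (1.24 ± 0.24 (SE), adjusted p = 7.39e-04), and Srxn1, sulfiredoxin (1.79 ± 0.53 (SE), adjusted p = 0.0229), were higher, while Hmox1 (0.31), Txnrd1 (0.46) and Gclm (0.10) were not called.

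Cholesterol synthesis and uptake genes moved in both directions: 12 of 24 were called higher and 4 lower, with a median of 0.74. Sqle, squalene epoxidase, had 80.9, 68.2, 46.5 and 73.9 CPM in Cpt2PparaDKO and 12.1, 12.7, 12.3 and 12.2 CPM in Cpt1DKO. The Control mean of 27 CPM fell between the groups (2.45 ± 0.45 (SE), adjusted p = 9.48e-04). Fdps, of the mevalonate pathway, was 6.61-fold higher (2.72 ± 0.43 (SE), adjusted p = 1.06e-04) at low means of 5.96 CPM in Cpt2PparaDKO and 0.905 CPM in Cpt1DKO. Over 24 alternative fits the Fdps log2 fold change ran from 0.98 to 3.09, and its call held in all 24. Hsd17b7, a later enzyme of the pathway, had the opposite sign (-0.84 ± 0.18 (SE), adjusted p = 0.00178). Without Cpt2PparaDKO replicate 4, 15 were higher and 2 lower, and 2 were lower without Cpt1DKO replicate 3 or 4. De novo lipogenesis, which builds fatty acids from acetyl-CoA, had 3 genes higher and 2 lower of 20, a share near that of all genes, and a median of -0.09 that turned sign with library totals as the scale. The second of these counts was 1 without Cpt1DKO replicate 1, 2 or 4 or Cpt2PparaDKO replicate 2 or 3. Elovl5, an elongase, was lower (-1.41 ± 0.24 (SE), adjusted p = 2.20e-04), while Fasn (-0.38), Scd1 (-1.14) and Srebf1 (-0.13) were not called.

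**Figure D5:**
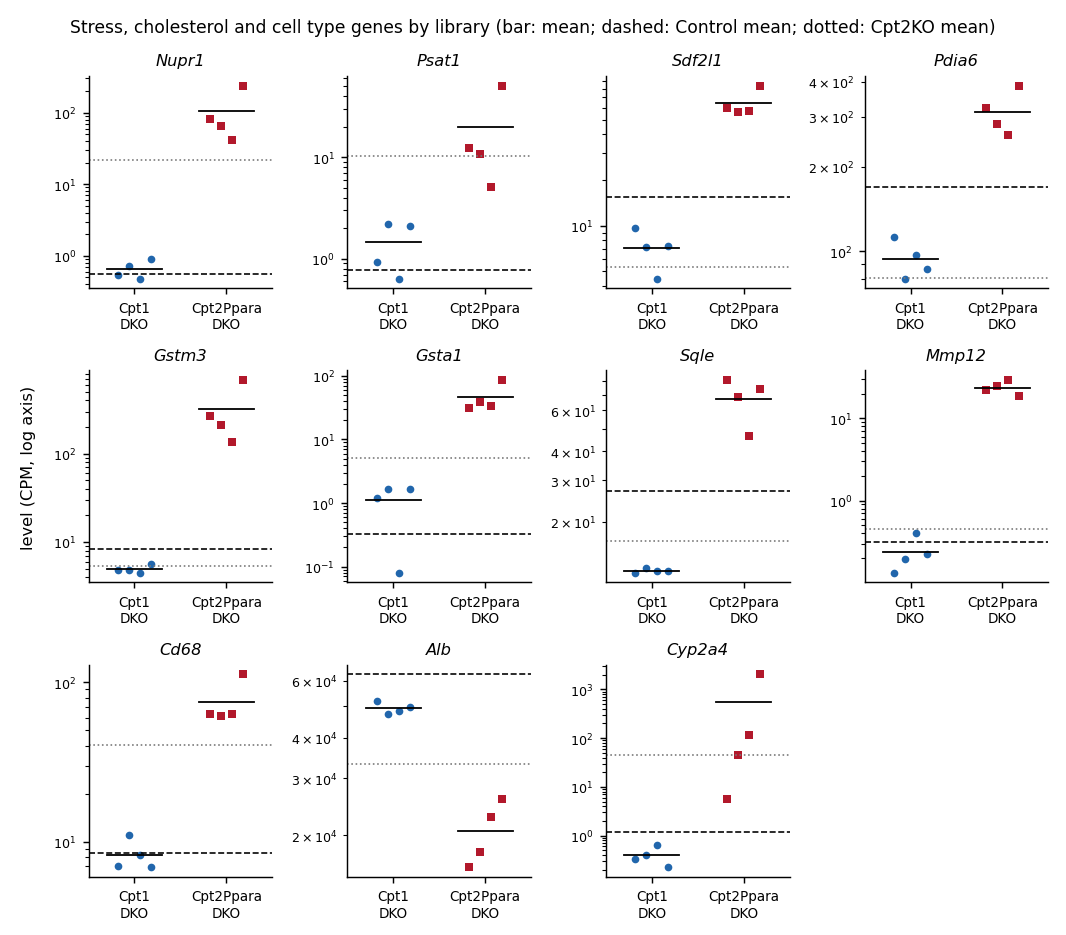
Level of 11 stress, cholesterol and cell type genes in CPM on log y axes, blue circles for the 4 Cpt1DKO and red squares for the 4 Cpt2PparaDKO libraries, with bars at group means and dashed and dotted lines at the Control and Cpt2KO means. The groups do not overlap in any of the 11, Alb is the one that is lower in Cpt2PparaDKO, and replicate 4, the last square, is the highest of its group in Nupr1, Psat1, Sdf2l1, Pdia6, Gstm3, Gsta1, Cd68, Alb and Cyp2a4.

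Markers of lipid-associated and monocyte-derived macrophages, cells that gather around lipid-laden or injured hepatocytes, were higher in 8 of 11 tested genes and lower in none, with a median of 2.54 (8 higher without Cpt2PparaDKO replicate 4). Their summed level was 248 to 331 CPM in Cpt2PparaDKO and 55.6 to 72.2 CPM in Cpt1DKO, beside means of 57.4 CPM in Control and 185 CPM in Cpt2KO. Mmp12, a macrophage elastase, had 22.1, 25, 29.3 and 18.5 CPM in Cpt2PparaDKO and 0.132, 0.196, 0.399 and 0.225 CPM in Cpt1DKO. It was at 0.316 CPM in Control and 0.451 CPM in Cpt2KO, so all 4 Cpt2PparaDKO libraries lay far above both (6.64 ± 0.47 (SE), adjusted p = 2.90e-09). Gpnmb, a lysosomal glycoprotein of such cells, had 46.6, 37.3, 24.4 and 48.1 CPM against 2.19, 2.29, 0.798 and 1.47 CPM (4.52 ± 0.38 (SE), adjusted p = 1.17e-07), and here the Cpt2KO mean was 38 CPM. Cd68, a lysosomal macrophage marker, was higher at 62.9, 61.7, 63.5 and 112 against 7.02, 11, 8.30 and 6.93 CPM (3.18 ± 0.27 (SE), adjusted p = 1.01e-07), with a Cpt2KO mean of 40.3 CPM. The receptor Trem2 had 2.47, 3.43, 5.19 and 1.67 CPM against 0.331, 0.588, 1.20 and 0.958 CPM (2.05 ± 0.49 (SE), adjusted p = 0.00442), and the integrin Itgax was higher as well (3.71 ± 0.56 (SE), adjusted p = 6.26e-05), while Spp1 (0.49) and Cd9 (0.51) were not called.

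Markers of other cell types were counted in the same way, beside 10.6 percent of all tested genes called higher and 11.3 percent called lower. Of 11 resident Kupffer cell markers, 1 was called higher, Cd5l (1.13 ± 0.37 (SE), adjusted p = 0.0367), whose call was lost without any single library other than Cpt2PparaDKO replicate 4 or Cpt1DKO replicate 3, and the 11 log2 fold changes ran from 0.15 to 1.49. When only the 8 libraries were fitted, 8 of the 11 were called higher. None of 14 endothelial markers was called, with values of -0.72 to 0.44 and a median that turned sign with library totals as the scale. Of 17 stellate cell and matrix genes, 3 were higher, among them the fibrillar collagen Col3a1 (1.12 ± 0.26 (SE), adjusted p = 0.00357), while Col1a1 (0.74) and Acta2 (-0.72) were not called. The stellate count was 4 without Cpt2PparaDKO replicate 4, 5 when only the 8 libraries were fitted and 9 with library totals as the scale. The cholangiocyte list had 2 higher, the simple-epithelium keratins Krt8 and Krt18 (1 without Cpt2PparaDKO replicate 4, where the Krt8 value was 0.53, adjusted p = 0.0936, or Cpt1DKO replicate 1, 3 or 4), and 1 lower, Krt23 (2 without Cpt2PparaDKO replicate 3 or 4 or Cpt1DKO replicate 3), while Krt19 (0.67), Krt7 (0.33) and Epcam (0.06) were not called. Neutrophil markers S100a8 (2.09 ± 0.60 (SE), adjusted p = 0.0153), S100a9 (2.04 ± 0.53 (SE), adjusted p = 0.00826) and Csf3r (0.85 ± 0.30 (SE), adjusted p = 0.0430) were the 3 tested of their list of 10, Ly6g was at 0 counts, and the Csf3r call was lost without Cpt2PparaDKO replicate 2 or 3 or Cpt1DKO replicate 1, 2 or 4 (1 of the 3 called without Cpt1DKO replicate 1 or 4). The 10 neutrophil genes together averaged only 3.97 CPM in Cpt1DKO and 8.41 CPM in Cpt2PparaDKO, so these calls rest on low levels. Of 8 lymphocyte markers, 2 were higher, among them the B cell gene Ms4a1, and 0 without Cpt2PparaDKO replicate 2 or 3. That list was low too, with sums of 3.40 CPM in Cpt1DKO and 7.42 CPM in Cpt2PparaDKO. The 5 tested erythroid genes and the 2 tested pancreas and adipose genes were not called, and Cpa1, Prss2, Pnlip and Lep were at 0 counts. Of 20 carrier proteins secreted by hepatocytes, 2 were higher and 4 lower, a share near that of all genes (3 and 3 without Cpt2PparaDKO replicate 4), and the list median turned sign with library totals as the scale.

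Acute phase proteins, which the liver secretes in inflammation, were higher in 10 of 24 and lower in 2, with a median of 0.29. Without Cpt2PparaDKO replicate 4 the counts were 10 and 2. Their summed level averaged 25940 CPM in Cpt2PparaDKO and 22310 CPM in Cpt1DKO, both under the Control mean of 29310 CPM. The Control means of Saa2 (12.2 CPM), Saa1 (47.4 CPM) and Lcn2 (9.98 CPM) lay between those of Cpt1DKO and Cpt2PparaDKO. Saa2 had 57.3, 65.3, 77.6 and 22.8 CPM in Cpt2PparaDKO and 1.19, 1.96, 2.63 and 4.34 CPM in Cpt1DKO, and Cpt2PparaDKO replicate 4 was the lowest of its group (4.44 ± 1.18 (SE), adjusted p = 0.0137). Saa1 was also lowest in that library within its group (4.01 ± 1.16 (SE), adjusted p = 0.0215), though its adjusted p passed 0.05 when any single Cpt1DKO library was left out, up to 0.0589. Lcn2, an iron-binding protein, was instead highest in replicate 4, at 30.6, 29.1, 26.2 and 202.5 against 4.37, 6.21, 3.43 and 5.41 CPM (3.88 ± 0.79 (SE), adjusted p = 0.00232; 2.57 without that library). Reads of Saa1 and Saa2 may be shared. Serpina3n (-0.90 ± 0.23 (SE), adjusted p = 0.00826) and Itih3 (-0.78 ± 0.17 (SE), adjusted p = 0.00262) were lower, while the fibrinogen chains Fga (-0.26), Fgb (-0.05) and Fgg (-0.37) were not called. In coagulation and complement, 2 were higher and 6 lower of 33, with Pros1, protein S, lower at 70.1, 64.4, 76.4 and 40.3 against 189, 199, 123 and 128 CPM (-1.35 ± 0.22 (SE), adjusted p = 1.75e-04); without Cpt2PparaDKO replicate 4 there were 4 higher and 6 lower, without Cpt1DKO replicate 2 there were 0 and 10, and the first count was 0 without Cpt1DKO replicate 1 or 4 or Cpt2PparaDKO replicate 2 or 3 and 1 without Cpt2PparaDKO replicate 1. The share of this list that was called was near the 21.9 percent of all tested genes, and its median turned sign with library totals as the scale.

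Growth and stress-signal genes had small sets of calls, to be read beside the 21.9 percent of all tested genes called either way and 10.6 percent called higher. Of 19 cell cycle genes, 5 were higher: Ccnd1, cyclin D1, had 32.4, 25.8, 24 and 90.4 CPM in Cpt2PparaDKO and 8.94, 6.73, 5.91 and 8.62 CPM in Cpt1DKO (2.51 ± 0.47 (SE), adjusted p = 0.00108; 1.88 without Cpt2PparaDKO replicate 4), and the helicase subunits Mcm2 (1.07 ± 0.27 (SE), adjusted p = 0.00639) and Mcm6 (1.13 ± 0.24 (SE), adjusted p = 0.00187) were higher. Mitotic genes such as Mki67 (0.45), Top2a (0.31) and Cdk1 (0.43) were not called. Of 18 immediate early genes and MAP kinase phosphatases, 4 were higher, among them Myc with 50.9, 43.9, 24.9 and 42.6 CPM against 10.8, 18.9, 10.1 and 11.4 CPM (1.67 ± 0.30 (SE), adjusted p = 5.31e-04). Of 15 p53 targets, 3 were higher (5 without Cpt2PparaDKO replicate 4), among them Eda2r (1.60 ± 0.40 (SE), adjusted p = 0.00680) and Bax (0.72 ± 0.17 (SE), adjusted p = 0.00376), and Cdkn1a (-0.35) and Mdm2 (0.03) were not. The tubulins Tubb5 (1.48 ± 0.25 (SE), adjusted p = 3.03e-04), Tuba1b (1.19 ± 0.22 (SE), adjusted p = 5.73e-04) and Tuba1a (1.37 ± 0.34 (SE), adjusted p = 0.00669) were the 3 higher of 11. With Cpt2PparaDKO replicate 4 left out, 4 cell cycle, 4 immediate early and 3 tubulin genes were higher.

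Lysosome and autophagy genes moved in both directions, 7 higher and 5 lower of 25. The hydrolases Ctsl, at 2311, 2104, 2105 and 3687 against 1374, 1529, 984 and 994 CPM, and Hexa (0.73 ± 0.12 (SE), adjusted p = 1.87e-04) were higher, and the autophagy genes Ulk1 (-1.05 ± 0.15 (SE), adjusted p = 2.55e-05), Wipi1 (-0.95 ± 0.20 (SE), adjusted p = 0.00173) and Map1lc3b (-0.65 ± 0.14 (SE), adjusted p = 0.00189) were lower. With library totals as the scale, 2 of the list were lower. Interferon-stimulated and antigen presentation genes had 6 higher and 2 lower of 28, beside 10.6 percent higher and 11.3 percent lower of all tested genes. Cxcl10, a chemokine, had 2.85, 3.83, 3.13 and 2.72 CPM in Cpt2PparaDKO and 0.861, 0.785, 0.559 and 1.30 CPM in Cpt1DKO (1.81 ± 0.35 (SE), adjusted p = 7.92e-04), and H2-K1, a class I heavy chain, was lower (-0.67 ± 0.14 (SE), adjusted p = 0.00149). The interferon count called higher was 2 without Cpt1DKO replicate 1 or 2, and that called lower was 1 without any single library other than Cpt1DKO replicate 2 or Cpt2PparaDKO replicate 1. Without Cpt2PparaDKO replicate 4, 7 lysosome and autophagy genes were higher and 4 lower, and 7 interferon genes were higher. Of 18 clock genes, 5 were lower and 1 higher, with Ciart lower at 7.22, 5.62, 4.91 and 11 against 13.5, 20.3, 48.4 and 29.5 CPM (-1.95 ± 0.45 (SE), adjusted p = 0.00487). The clock count called lower was 2 without Cpt2PparaDKO replicate 2 or 3 or Cpt1DKO replicate 3 or 4 and 3 without Cpt2PparaDKO replicate 1 or 4, the list median of -0.23 turned sign with library totals as the scale, and collection times were not given in the sources used here.

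Genes of sex-biased liver expression bear on Cpt2PparaDKO replicate 4. Of 20 tested, 1 was higher and 2 were lower (2 and 3 without that library, 2 higher without any other single Cpt2PparaDKO library, 1 lower without Cpt1DKO replicate 4 and 0 lower when only the 8 libraries were fitted). Of all tested genes, 10.6 percent were called higher and 11.3 percent lower, so these counts do not set the list apart. Cyp2a4, which is higher in female liver, had 5.74, 45.3, 117 and 2051 CPM in Cpt2PparaDKO and 0.331, 0.392, 0.639 and 0.225 CPM in Cpt1DKO. Most of its level came from replicate 4, yet the other 3 values also lay above all of Cpt1DKO (10.48 ± 2.25 (SE), adjusted p = 0.00358; 7.19, adjusted p = 0.00911 without that library; 7.90, adjusted p = 0.219 with limma-voom). Cyp4a12b, which is higher in male liver, had 23.7, 22.7, 20.1 and 0.0776 CPM against 156, 129, 114 and 144 CPM, and again replicate 4 stood at the far end (-3.03 ± 0.80 (SE), adjusted p = 0.0134; 0.0549 when only the 8 libraries were fitted).

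In the authors' deposited table of this comparison, 3705 genes were called at the same threshold, 1856 higher and 1849 lower in Cpt2PparaDKO. By the authors' deposited table, 3080 of them were called here in the same direction, 83.1% of the authors' calls and 89.6% of the calls here, and 0 in the opposite direction. It was made from the same libraries and is no independent support.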

How the data were processed

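Liver RNA of fasted mice was measured in 20 libraries, 4 in each of 5 groups. The authors deposited whole-number counts per gene with GRCm39 coordinates, not normalized, a matching table of FPKM values, and, for each comparison, a table of log2 fold changes and p-values. The submitters' processing notes list HISAT2 and the build GRCm39 (mm39). How reads were counted, on which strand and with which annotation was not given in the sources used here, so overlapping, antisense and near-identical genes may share reads.

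Counts were fitted with edgeR 4.0.16 (R 4.3.3; filterByExpr at a minimum count of 10, TMM factors, robust quasi-likelihood test) over the 20 libraries, with group as the only factor. The contrast was Cpt2PparaDKO minus Cpt1DKO, and calls have a Benjamini-Hochberg adjusted p under 0.05. The deposited counts gave 14129595 to 36452673 per library in the 8 libraries, and the biological coefficient of variation was 0.233. The script was tested on simulated data. FPKM values, as the authors deposited them, entered only as an alternative, on log2(FPKM + 1) and log2(FPKM + 0.1) with limma 3.58.1. The other alternatives are named in the closing section (DESeq2 1.42.0).

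The members and lists were chosen with earlier results of these data known. The rule for named genes took the 4 targeted genes, the 12 largest rises and falls among called protein-coding genes without overlap whose mean reached 5 CPM, up to 3 called members a list and direction with at least 2 CPM, and 12 fasting genes. Hspa5, Fabp1, Atf4, Asns, Trib3, Apob, Pck1, Trem2, Itgax and the other list members named outside this rule were named after their values were seen. Some genes that this rule took are not reported here. Promoter windows matched 11011 tested genes by symbol.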

Additional observations from a re-analysis of the deposited data

Results flagged for a closer look

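In 38 of 302 sets of 4 values examined, the value of 1 library lay so far from the other 3 that its gap, as a share of the whole range, exceeded Dixon's critical value for 4 samples. Chance flags about 1 in 20 such sets, and most of those found share a single library, so they are not independent of each other.

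Cpt2PparaDKO replicate 4, the library of a female pattern, accounted for 30 of them, and its values in CPM follow by gene group. Among fatty acid genes it was low for Cpt1a (468), Acat1 (102) and Mgll (72.5) and high for Lpin1 (276.5), Acss3 (5.98) and Slc16a6 (25.1). Among stress and glutathione genes it was high for Psat1 (50.6), Aldh18a1 (16.2), Atf4 (182), Pck2 (39.0), Sdf2l1 (83.5) and Gsta1 (85.8). It was high for the secreted proteins Serpina7 (223) and Lcn2 (202.5) and low for the complement proteins Mbl1 (20.5) and C2 (24.4). P450 genes stood apart in both directions, Cyp2a4 (2051) and Cyp2c70 (131) high and Cyp4a12b (0.0776) low, and the male-biased Susd4 (1.47) was low. Growth, structural and other metabolic genes were high, namely Ccnd1 (90.4), Glul (589), Tubb5 (239), Tuba1b (51.7), Krt8 (752) and Krt18 (448). The macrophage marker Cd68 (112) and the cathepsin Ctsl (3687) were high, and Lrat (16.8) and Wipi1 (18.2) were low. The cause was not tested, and sex, animal and library cannot be told apart for it.

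In other libraries, Cpt1DKO replicate 2 was low for Cpt2 (147) and high for Myc (18.9) and Krt8 (310). Cpt1DKO replicate 3 was high for Eci2 (445) and Lpl (20.8). Cpt2PparaDKO replicate 3 was high for Gbp2 (8.46) and low for Tuba1a (2.43). The total count of Cpt2PparaDKO replicate 1, 36452673, was the only depth to stand apart.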

How the results depend on the processing

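The main result is 3436 called genes, 1658 higher and 1778 lower, and 1391 past 2-fold, 737 higher and 654 lower. Calls numbered 2808 to 3876 with the 8 libraries fitted alone, median-ratio or upper-quartile factors, DESeq2, limma-voom, no filter or a stricter one, the deepest library thinned, sex as a term, the 2 female-pattern libraries of the series left out, or log2 FPKM. With log2(FPKM + 1), which shrinks differences of low genes, 612 were past 2-fold, 222 higher and 390 lower. With library totals as the only scale, 6391 were called, 5666 higher and 725 lower, and 2179 were past 2-fold, 1805 higher and 374 lower. On that scale the values of B2m (0.0077) and Plin2 (0.14) turned from lower to higher. Leaving out 1 library at a time gave 2705 to 3222 calls, 1245 to 1573 higher and 1406 to 1723 lower, of which 1213 to 1389 were past 2-fold, 602 to 724 higher and 522 to 665 lower. Without Cpt2PparaDKO replicates 1 and 4 together, an alternative chosen after seeing the data, 2059 were called, 1073 higher and 986 lower, with 414 past 2-fold and lower; fewer libraries remain in that fit. With the replicate number as a replicate block, 3264 genes were called over 20 libraries, and 2023 over 8, 1076 higher and 947 lower. Deviations of same-numbered libraries correlated at -0.198 to 0.202, over 0.1 for 1 of 4 numbers. Of 4 Cpt1DKO libraries, 1 correlated best with its own number. So few libraries cannot show whether same-numbered samples share more than a number. Depth limits genes such as Cpt1b, at about 1 CPM or under, for which no difference was detectable.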
